A study of Mus musculus with 32 samples.

Results

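Lectin-like receptor genes are described here by the H3K9me3 peaks called over them in male mouse germ cells. The members are the RefSeq protein-coding genes placed on the GRCm38 autosomes whose symbol starts with Klr or Clec. There were 60 of them among 20554 autosomal protein-coding genes, 27 Klr and 33 Clec genes, and 52 lay on chromosome 6. The largest linked group, in which neighbours were at most 500 kb apart, held 37 members (24 Klr, 13 Clec) and is called the chromosome 6 cluster. It spanned 1778 kb, from Klrb1a to Klra1 (chr6:128609227-130386874, GRCm38). The other 23 members comprised 15 elsewhere on chromosome 6 and 8 on 6 other autosomes.

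Male germ cells came from testes of mice carrying the Mvh-Venus transgene, whose Mvh (Ddx4) promoter is active in germ cells. Samples were taken at 2 embryonic stages, E13.5 and E16.5, and 2 postnatal stages, P0 and P3, named by day of gestation or day after birth. At every stage animals were Morc1 (+/-), called het, or Morc1 (-/-), called KO. All of the groups therefore carried at least 1 mutant Morc1 allele, and no wild-type group was used here. The 16 samples of an H3K9me3 antibody formed 8 groups of 2, and each group was represented by 1 peak list, so no value has a replicate error and no test between genotypes or stages was possible. A further 16 samples, of a histone H3 antibody, entered no comparison. Mouse strain, the nature of the Morc1 allele and read depth are not given in the sources used here. The lists held 50191 to 89020 autosomal peaks and covered 159.7 to 324.0 Mb. Marker genes of germ cells could not be checked, since a peak list holds no expression value.

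H3K9me3 is a histone mark of heterochromatin, and the nuclear ATPase MORC1 acts in male germ cells in the silencing of transposable elements. Klr genes encode killer cell lectin-like receptors, by which natural killer cells read MHC class I and related molecules on other cells. Clec genes encode other C-type lectin-like proteins, many of them receptors of dendritic cells, macrophages and platelets for microbial sugars or for dying cells. In the mouse most of these genes stand in the natural killer gene complex of chromosome 6, where Klra, Klrb and Clec2 genes arose by repeated duplication.

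For every gene the base pairs covered by peaks were summed over the gene body and 5 kb on each side, here called its window. Covered length is given in kb, and comparisons between genes use the percent of the window covered. Where 2 covered lengths are joined by "against", het comes before KO. Intervals are 95% Wilson intervals over 1 kb units (for ratios, log-normal intervals over the same units). They cover counting error only and treat neighbouring units as independent, which they are not. For ratios between genotypes or stages they also treat the 2 lists as independent, though both were scored over the same windows. Whether such an interval includes 1 is therefore no test.

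The cluster as a whole was more densely covered than the other 23 members in every list. The difference from the other members of chromosome 6 alone was smaller, above all after birth. The cluster was also covered unevenly across its gene groups. Of the joined windows of its 37 genes (940.3 kb), peaks covered 31.1% in het (interval 28.2 to 34.2%) and 35.2% in KO (32.2 to 38.3%) at E13.5. At E16.5 the shares were 39.2% (36.1 to 42.3%) and 37.9% (34.9 to 41.1%). At P0 they were 32.01% (29.1 to 35.1%) and 36.7% (33.7 to 39.8%), and at P3 27.9% (25.1 to 30.9%) and 30.96% (28.1 to 34.0%). The highest values were thus those of E16.5 and the lowest that of P3 het. The other 23 members had 9.18% in het and 8.61% in KO at E13.5, 14.8% and 15.3% at E16.5, 19.6% and 19.2% at P0, and 15.9% and 17.8% at P3. The cluster share was 3.39 times (het) and 4.09 times (KO) that of the other members at E13.5. The factor was 2.65 and 2.48 at E16.5, 1.63 and 1.92 at P0, and 1.75 and 1.74 at P3. Of these 8 factors none had an interval that reached 1, and the nearest bound was 1.38, in P0 het. The 15 other members of chromosome 6 alone had 14.99% in het and 13.53% in KO at E13.5, 23.5% and 24.9% at E16.5, 30.8% (26.7 to 35.2%) and 30.1% (26.0 to 34.5%) at P0, and 24.1% (20.3 to 28.2%) and 27.4% (23.4 to 31.7%) at P3. At P0 and P3 their intervals overlapped those of the cluster in both genotypes. The factor there thus rested largely on the 8 genes off chromosome 6. Of the 344.7 kb of their windows, 209.6 kb belonged to the long gene Clec16a, of which at most 1.81% was covered. By group, P0 het had 49.3% over the Klra genes of the cluster and 38.4% over its Klrb and Clec2 genes. Its NKG2 and related genes had 13.6% and its Dectin-1 group 8.51%, both below the 15 other members of chromosome 6.

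The windows of all 20554 genes were covered to 3.59% (E13.5 het) to 8.08% (P3 KO). The cluster share was 8.66 times that value in E13.5 het and 3.83 times in P3 KO. Among other gene families that stand in clusters, the 1103 olfactory receptor genes (Olfr) had 17.5% to 30.1% of their windows covered over the 8 lists and the 351 vomeronasal receptor genes (Vmn1r, Vmn2r) 21.5% to 30.5%. The 73 defensin genes had 9.29% to 16.1%. The difference between these families and the cluster was not tested. The 8 members off chromosome 6 had 1.64% to 5.37%, below the share of all genes in every list. Of the 344.7 kb of their windows, 209.6 kb belonged to the long gene Clec16a, so this share largely describes that gene. Their median share per gene was below that of all genes in no list. It was 4.59% against 0% in P0 het and 5.08% against 2.04% in P3 KO.

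The flanks of the cluster differed. In the 500 kb before Klrb1a, peaks covered 1.93% (E13.5 het) to 5.56% (P0 KO). In the 500 kb after Klra1, where no member lies, they covered 18.5% (P3 KO) to 37.0% (E13.5 KO). The 5 protein-coding genes inside the span that are no members had 7.24% (E13.5 het) to 18.9% (P0 KO) of their windows covered. Within the span, 346 of 1777 bins of 1 kb (19.5%) were called in all 8 lists, against 4.08% of autosomal bins, and 930 bins (52.3%) were called in none, against 79.4%. Bins were taken as called from 50% of their bases in a peak upward.

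**Figure D1:**
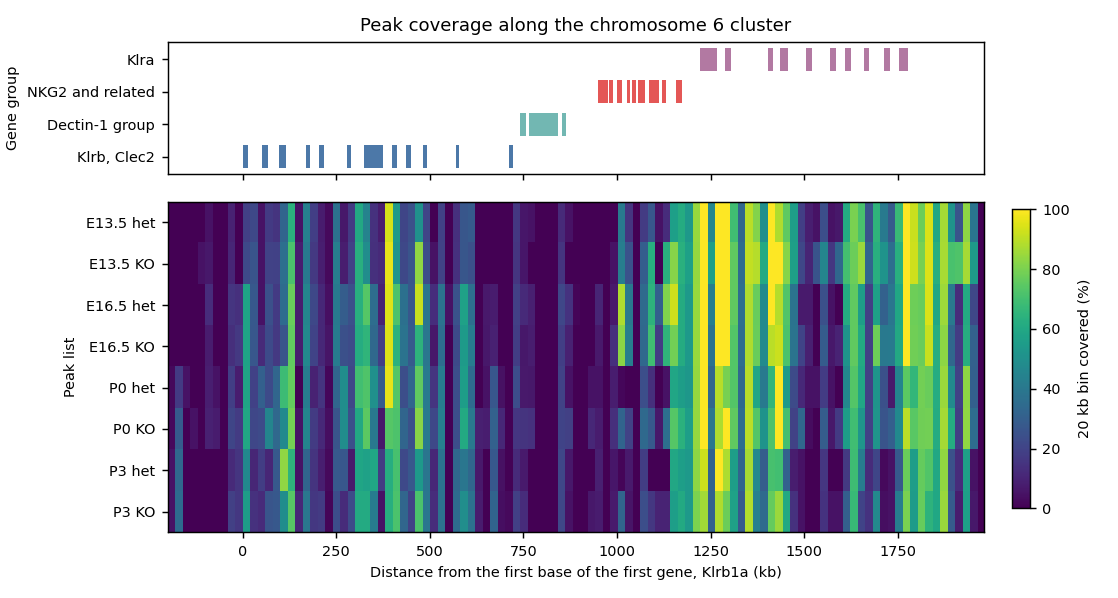
Percent of each 20 kb bin covered by peaks in the 8 lists (rows, colour scale 0 to 100%) against the distance in kb from the first base of Klrb1a, with the genes of the cluster drawn above by group. The Klra genes lie in the most densely covered part, and most of the Dectin-1 group lies in an uncovered stretch. Of the NKG2 and related genes, Klrk1, Klrc3, Klri1 and Klri2 are covered in the E16.5 lists and little in P0 het and P3 het, whereas Klrh1 is covered in every list.

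Coverage of single members ranged from none to complete. A peak touched the window of 45 of the 60 members in E13.5 het and 45 in E13.5 KO, 46 and 47 at E16.5, 47 and 50 at P0, and 43 and 47 at P3. The same was true of 40.0% and 44.8% of all genes at E13.5, 44.5% and 43.5% at E16.5, 48.4% and 53.5% at P0, and 50.9% and 53.5% at P3. In all 8 lists a call was present for 38 members (24 of the cluster, 14 of the others), against 27.1% of all genes. No list had a call for 8 members, against 29.4% of all genes. Over 50% of the window was covered in all 8 lists in 7 members, against 1.38% of all genes. These 7 were Klra17, Klra5, Klra6, Klra1, Klrh1 and Clec2f in the cluster and Clec4a3 outside it.

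**Figure D2:**
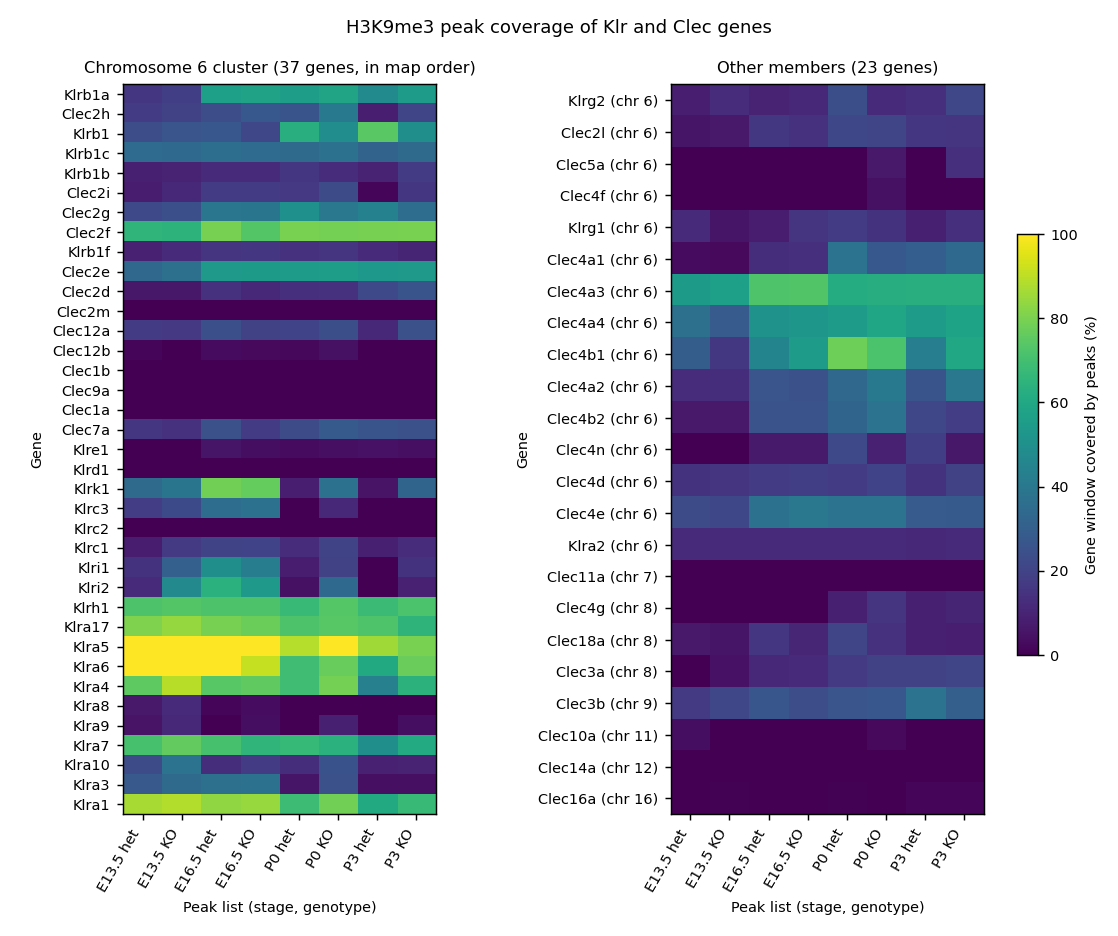
Percent of each gene window covered by peaks (colour, 0 to 100%) for the 37 cluster genes in map order (left) and the 23 other members (right), in the 8 lists (columns). Klra5 and Klra6 reach 100%, and Klrd1, Klrc2, Clec1a, Clec1b, Clec9a and Clec2m are at 0 in every list.

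The Klra genes encode the Ly49 receptors, which bind MHC class I molecules on the surface of target cells. The 10 Klra genes of the cluster had the highest share of any group examined, 61.1% in het and 66.8% in KO at E13.5, 59.4% and 59.0% at E16.5, 49.3% and 56.5% at P0, and 42.7% and 46.6% at P3. The share was thus highest at E13.5 and lowest at P3 in both genotypes, whereas over all genes it was lowest at E13.5. From E13.5 to P3 the interval of het went from 55.4 to 66.5% down to 37.2 to 48.4%, with no overlap.

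Klra5 had the highest mean coverage of all members. Of its window of 24.25 kb, 24.25 kb was covered in both E13.5 and both E16.5 lists. After birth 21.5 kb (P0 het), 24.25 kb (P0 KO), 20.8 kb (P3 het) and 19.4 kb (P3 KO) were covered. Only the P0 KO list among the postnatal ones kept the window complete. Klra6 was complete in both E13.5 lists and in E16.5 het, with 23.9 kb. It had 21.8 kb in E16.5 KO, 16.6 and 18.3 kb in P0 het and KO, and 14.5 and 18.4 kb in P3 het and KO. The embryonic lists were higher than the postnatal ones in each genotype.

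Klra17 had 44.7 against 46.8 kb of 55.5 kb covered at E13.5, 44.0 against 43.0 kb at E16.5, 39.99 against 41.0 kb at P0, and 40.2 against 36.1 kb at P3. Klra1, of which 28.6 against 29.1 kb of 32.96 kb was covered at E13.5, had 27.5 against 27.8 kb at E16.5, 22.7 against 25.9 kb at P0, and 19.96 against 22.3 kb at P3. Klra4 had 25.3 against 29.9 kb of 33.6 kb at E13.5, 24.9 against 25.3 kb at E16.5, 23.2 against 26.5 kb at P0, and 14.6 against 21.5 kb at P3. Klra1 and Klra4 were higher in KO than in het at all 4 stages, and the Klra4 difference at P3, 6.91 kb, was the largest KO excess of any member at that stage. Klra7 kept 12.3 (P3 het) to 18.8 kb (E13.5 KO) of 24.7 kb.

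The longest peak of the cluster joined Klra17 and Klra5. In the 4 embryonic lists it was a single peak of 54.4 to 54.9 kb, for example chr6:129864048-129918908 in E16.5 het. After birth the same interval held 4 peaks in P0 het, 2 in P0 KO, 2 in P3 het and 3 in P3 KO, which together covered 48.1, 52.4, 50.7 and 46.6 kb. In the postnatal lists 84.9% (P3 KO) to 95.5% (P0 KO) of the interval was thus covered, in several pieces. Between Klra17 and Klra1 as a whole, 178 of 555 bins (32.1%) were called in all 8 lists.

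Neighbouring Klra copies were not covered alike. Klra8 encodes Ly49H, an activating receptor known for its part in resistance to a mouse cytomegalovirus. It lies between the dense Klra4 and Klra7, but in its window of 24.7 kb 1.695 against 2.97 kb was covered at E13.5, 0.422 against 0.781 kb at E16.5, 0.005 against 0 kb at P0, and none at P3. Its neighbour Klra9 had 1.32 against 2.94 kb at E13.5. In het it had none at E16.5, P0 or P3, and in KO it had 1.001, 2.26 and 1.001 kb. Klra9 was therefore called in every KO list and in 1 het list, although the 1.001 kb of E16.5 KO and P3 KO is a short call. Klra10 had 5.595 against 9.33 kb at E13.5, 3.23 against 4.25 kb at E16.5, 3.21 against 6.18 kb at P0, and 2.23 against 2.34 kb at P3. Klra3 had 6.77 against 8.44 kb at E13.5, 8.97 against 9.22 kb at E16.5, 1.34 against 6.03 kb at P0, and 1.001 kb in both genotypes at P3. Klra2, which lies 812.1 kb beyond Klra1, had 6.87 to 7.17 kb of 58.7 kb covered in the 8 lists, the narrowest range among the Klra genes.

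The promoters of 2 pairs of Klra genes are shown, those of highest identity by the measure given below. In both pairs the calls differed. RefSeq promoter windows of 300 bases on GRCm38.p6 (250 before and 50 after a transcription start) were available for 50 members, 33 of the cluster and 17 others. A window counted as covered with at least 150 bases in a peak. Identity was counted over all columns of a global alignment, so gap columns lowered it, also where 2 windows were only offset. By this measure the highest pairs of different Klra genes were Klra4 with Klra8 (86.05%) and Klra3 with Klra9 (84.95%). The other pairs had lower values, down to 38.9%, which do not rank how alike the aligned bases are. Klra6 with Klra9 had 52.5%, with 201 identical, 16 mismatched and 166 gap columns. Pairs with lower values could carry like calls, as Klra17 with Klra4 (78.9%, covered in 8 and 6 lists) and Klra5 with Klra6 (74.8%, both in 8). The Klra4 window (chr6:130067222-130067521) was covered in 6 lists, all but both P3 lists, and the Klra8 window (chr6:130129849-130130148) in none. The Klra3 window (chr6:130337577-130337876) was covered in 5 lists, the embryonic lists and P0 KO, and the Klra9 window (chr6:130193063-130193362) in none. All lie on the minus strand and are printed 5′ to 3′. Capitals mark bases that mismatch or have no aligned base in the other window of the pair.

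Klra4: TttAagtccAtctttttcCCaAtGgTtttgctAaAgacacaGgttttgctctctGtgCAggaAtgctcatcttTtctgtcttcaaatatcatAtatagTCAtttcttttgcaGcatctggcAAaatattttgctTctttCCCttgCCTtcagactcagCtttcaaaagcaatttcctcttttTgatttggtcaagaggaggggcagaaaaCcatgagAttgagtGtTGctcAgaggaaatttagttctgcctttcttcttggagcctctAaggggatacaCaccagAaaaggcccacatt

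Klra8: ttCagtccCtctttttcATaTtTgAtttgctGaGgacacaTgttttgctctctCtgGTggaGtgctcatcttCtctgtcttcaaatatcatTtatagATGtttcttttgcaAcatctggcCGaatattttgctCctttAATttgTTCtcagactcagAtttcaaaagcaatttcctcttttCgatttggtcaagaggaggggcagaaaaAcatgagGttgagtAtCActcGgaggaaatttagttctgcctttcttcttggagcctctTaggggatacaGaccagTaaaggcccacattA

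Klra3: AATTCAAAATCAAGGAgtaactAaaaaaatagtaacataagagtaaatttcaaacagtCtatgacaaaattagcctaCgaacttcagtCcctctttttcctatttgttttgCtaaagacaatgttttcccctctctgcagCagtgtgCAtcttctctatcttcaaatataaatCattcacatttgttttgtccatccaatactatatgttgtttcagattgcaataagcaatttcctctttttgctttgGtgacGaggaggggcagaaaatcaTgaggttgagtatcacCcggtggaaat

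Klra9: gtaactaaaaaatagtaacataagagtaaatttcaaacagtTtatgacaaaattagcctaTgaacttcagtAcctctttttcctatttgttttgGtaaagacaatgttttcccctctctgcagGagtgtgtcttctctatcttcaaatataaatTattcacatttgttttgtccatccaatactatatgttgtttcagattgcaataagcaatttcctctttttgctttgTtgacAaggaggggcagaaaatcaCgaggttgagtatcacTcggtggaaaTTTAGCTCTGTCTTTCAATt

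Each sequence of the first pair has 41 bases in capitals and each of the second pair 29. The alignment of the first pair has 40 mismatches and 2 gap columns, that of the second 10 mismatches and 38 gap columns. Most capitals of the second pair are thus bases without a partner, largely where the 2 windows are offset, and not substitutions. How reads that fit several copies were placed is not given in the sources used here, so calls over the most similar copies are uncertain, and the part of read placement in these differences was not tested. The Klra promoters of the cluster were poor in the dinucleotide CG, with 0 to 4 in each of 12 windows. At most 4 was found in 37.6% of all 31396 autosomal windows, whose median was 7.

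Over all members with a promoter window, 7 had a window covered in all 8 lists, namely Klra17, Klra5, Klra6, Klra7, Klra1, Klrh1 and Clec12a. Of all 25748 autosomal genes in the promoter table, which was not limited to the 20554 protein-coding genes, 1.9% did. In 12 members the promoter was covered in 1 to 7 lists. For 31 members no list covered it, 18 in the cluster and 13 of the 17 others. This held for 87.0% of the genes in the promoter table.

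The NKG2 and related genes (Klrk1, Klrd1, the Klrc genes, Klre1, the Klri genes and Klrh1) had the largest KO over het ratios of the cluster's groups at E13.5, P0 and P3, and the largest difference between E16.5 and P0. Klrk1 encodes NKG2D, an activating receptor for ligands that stressed cells display. Klrd1 encodes CD94, the partner of the NKG2 proteins that the Klrc genes encode, and Klre1 pairs with Klri1 or Klri2. The windows of these 9 genes were covered to 19.3% (interval 14.6 to 25.2%) in het and 27.7% (22.1 to 34.1%) in KO at E13.5, and to 38.7% (32.4 to 45.4%) and 36.5% (30.3 to 43.1%) at E16.5. At P0 the shares were 13.6% (9.65 to 18.9%) and 24.7% (19.4 to 30.9%), and at P3 11.4% (7.82 to 16.4%) and 18.6% (13.95 to 24.4%).

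The covered length at P0 was 0.352 of that at E16.5 in het (interval 0.241 to 0.515) and 0.677 in KO (0.504 to 0.909). Over all genes the same ratios were 1.08 and 1.37. KO over het was 1.43 at E13.5 (1.01 to 2.04), 0.943 at E16.5 (0.737 to 1.21), 1.81 at P0 (1.199 to 2.74) and 1.63 at P3 (1.02 to 2.60), against 1.19, 0.919, 1.17 and 1.18 over all genes. Without Klrh1, which was covered alike in all lists, KO over het was 3.16 at P0 and 3.66 at P3. With equal numbers of peaks, the 52630 longest of every list, it was 1.73 at P0 and 1.45 at P3 for all 9 genes. The interval of the P3 ratio reached below 1 under each of 4 alternatives (equal peak numbers, 0.864 to 2.44), and that of E13.5 without flanks (0.785 to 1.98) and with equal peak numbers (0.991 to 2.01). At P0 it stayed above 1 under all 4, with 1.12 as the lowest bound.

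**Figure D3:**
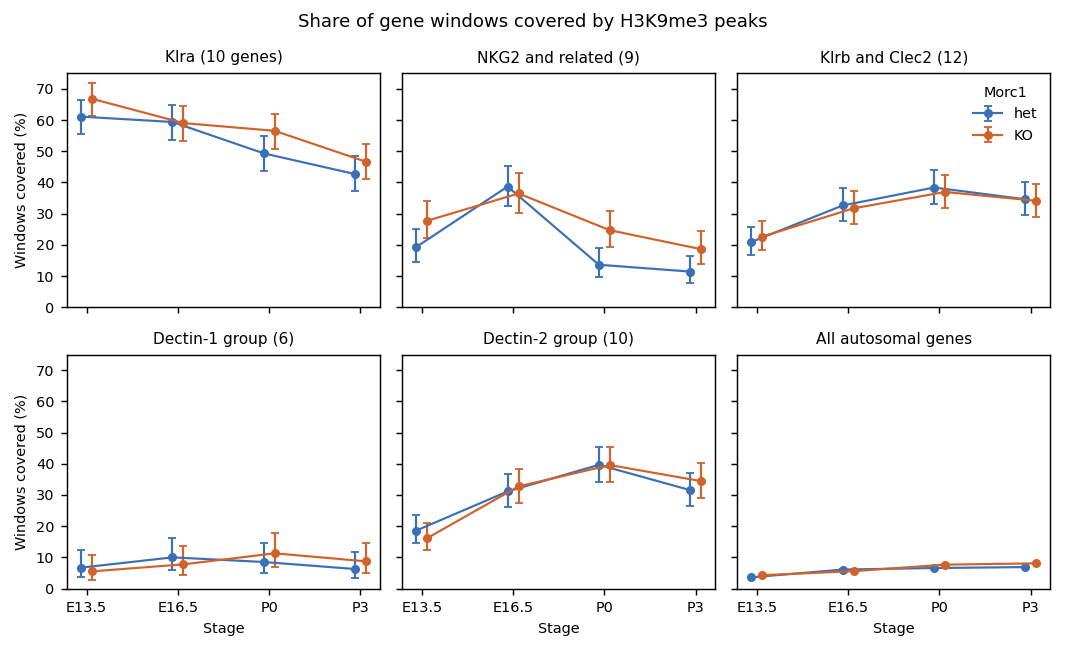
Percent of the joined windows of 5 gene groups and of all autosomal genes covered by peaks at the 4 stages, in het (blue) and KO (orange). Points are single lists and bars are 95% Wilson intervals over 1 kb units. The Klra share declines from E13.5 to P3, the NKG2 and related share peaks at E16.5 and is higher in KO at E13.5, P0 and P3, and the Dectin-2 share is highest at P0.

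In the Klrk1 window of 23.6 kb, peaks covered 8.19 against 9.21 kb at E13.5, 18.6 against 17.98 kb at E16.5, 2.007 against 8.805 kb at P0, and 1.26 against 7.59 kb at P3. Both genotypes were high at E16.5. After birth het was at the lowest values and KO was at a level near that of E13.5. In E16.5 het a single peak of 18.5 kb (chr6:129612659-129631125) covered most of the gene. At P0 and P3 no het peak overlapped the Klrk1 gene body, and in KO peaks of 3.64 kb (chr6:129620867-129624507) and 3.19 kb (chr6:129620855-129624047) lay over its start. The promoter window (chr6:129623815-129624114, minus strand) lay in a peak in 5 lists, E13.5 het, both E16.5 lists, P0 KO and P3 KO. Its sequence is printed 5′ to 3′ with CG in capitals, since it lay in a KO peak and in no het peak at both P0 and P3, as did the Clec5a window and that of no other member.

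Klrk1: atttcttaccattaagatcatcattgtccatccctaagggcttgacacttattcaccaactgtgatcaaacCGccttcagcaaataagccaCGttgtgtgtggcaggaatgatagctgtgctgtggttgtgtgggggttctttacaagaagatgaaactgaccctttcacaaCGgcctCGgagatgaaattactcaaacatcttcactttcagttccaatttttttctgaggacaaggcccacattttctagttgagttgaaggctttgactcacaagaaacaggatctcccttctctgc

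Klri1 had 5.09 against 10.6 kb at E13.5, 17.2 against 14.5 kb at E16.5, 2.615 against 6.77 kb at P0, and 0 against 5.055 kb at P3, in a window of 34.5 kb. Klri2 had 2.53 against 10.1 kb at E13.5, 13.7 against 11.5 kb at E16.5, 1.001 against 7.335 kb at P0, and 0 against 2.002 kb at P3, in a window of 21.4 kb. In both genes KO was higher at E13.5, P0 and P3 and het was higher at E16.5. They were the members with the largest KO excess at E13.5 and the largest het excess at E16.5. Klrc3, which encodes an NKG2 protein, had 3.10 against 3.88 kb at E13.5, then 6.16 against 6.51 kb at E16.5. After birth 1.89 kb in P0 KO was its only call.

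Klrc1, which encodes the inhibitory NKG2A, had 2.07 against 4.61 kb at E13.5, 5.50 against 5.37 kb at E16.5, 3.45 against 5.475 kb at P0, and 2.36 against 3.40 kb at P3. Klrh1 stood apart from its neighbours with 18.8 to 20.4 kb of 27.7 kb in all 8 lists. Klre1 had no call at E13.5 and 1.001 to 2.055 kb in the 6 later lists. Klrd1 and Klrc2 had no call in any list.

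The stretch from Klrk1 to Klri2 (130.2 kb) was chosen after these values had been seen, so its counts describe them again at finer scale. Peaks covered 22.2 against 37.1 kb of it at E13.5, 58.1 against 55.6 kb at E16.5, 8.53 against 27.8 kb at P0, and 5.235 against 18.8 kb at P3. Of 53 bins called in both genotypes at E16.5, 18 (34.0%) were called at P0 in KO only and 0 in het only. Of such autosomal bins, 6.46% were called in KO only and 4.45% in het only at P0. Between Klra17 and Klra1 the shares were 11.8% and 4.53% of 287 bins, and between Klrb1a and Clec2d 2.69% and 5.38% of 186 bins.

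**Figure D4:**
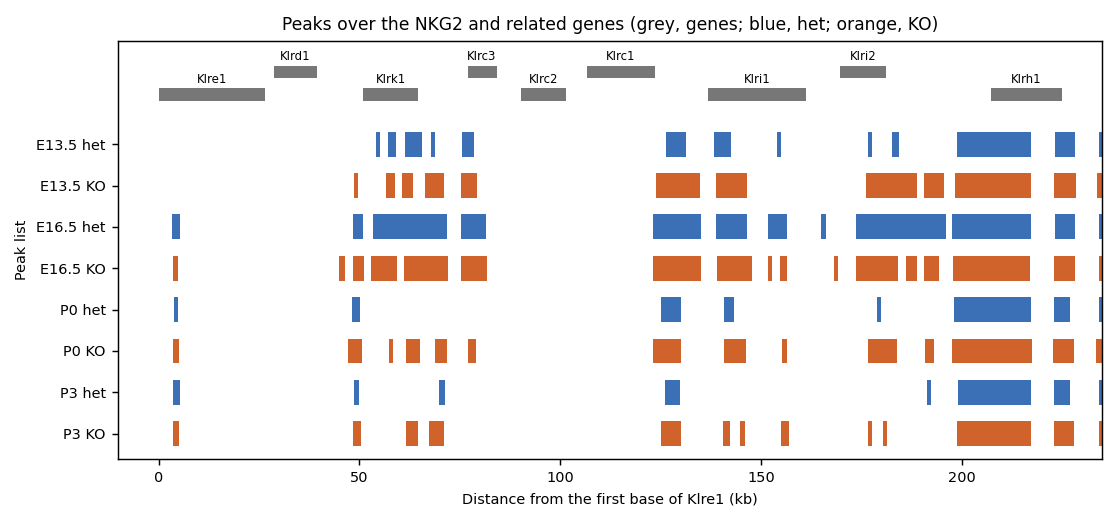
Peaks of the 8 lists (rows, blue for het and orange for KO) over the NKG2 and related genes (grey bars) against the distance in kb from the first base of Klre1. Over Klrk1, Klrc3, Klri1 and Klri2 the peaks are widest at E16.5, and fewer are left in P0 het and P3 het than in P0 KO and P3 KO, whereas the wide peak at Klrh1 is present in every list.

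Klrb genes encode NKR-P1 receptors, and several Clec2 genes encode the Clr proteins that serve as their ligands, so receptor and ligand genes stand intermixed along the start of the cluster. The 12 genes of this group in the cluster had 20.9% of their windows covered in het and 22.7% in KO at E13.5, 32.6% and 31.7% at E16.5, 38.4% and 36.9% at P0, and 34.6% and 34.1% at P3. Their KO over het ratios were 1.08, 0.972, 0.963 and 0.986, and every interval included 1. The highest value was that of P0, 2 stages later than for the Klra genes.

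Clec2f was the most covered of the group, with 14.7 against 14.6 kb of 22.5 kb at E13.5 and 16.51 to 18.0 kb in the later lists. Klrb1a had 3.75 against 4.375 kb at E13.5, 13.4 against 13.6 kb at E16.5, 13.3 against 13.8 kb at P0, and 11.3 against 13.1 kb at P3. Its promoter was outside peaks at E13.5 and inside them in all 6 later lists. Klrb1 was a member with more coverage in het after birth, with 17.8 against 13.9 kb at P0 and 21.0 against 14.1 kb at P3. Before birth it had 6.715 against 7.43 kb at E13.5, then 7.72 against 5.96 kb at E16.5. Clec2g had 13.2 against 14.8 kb at E13.5, 23.6 against 23.4 kb at E16.5, 30.2 against 24.2 kb at P0, and 26.6 against 21.5 kb at P3. Klrb1 and Clec2g were the members with the largest het excess at P3, and both were also among the 2 largest at P0, but neither reached 1.5 fold.

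Clec2h went the other way after birth, with 6.53 against 10.1 kb at P0 and 2.12 against 5.265 kb at P3. It had 4.395 against 4.96 kb at E13.5, then 5.91 against 6.85 kb at E16.5. Klrb1c, which encodes the NK1.1 antigen of natural killer cells, varied little, from 6.45 kb (P3 het) to 7.499 kb (P0 KO) of 20.2 kb. Clec2d, which encodes the Clr-b ligand, had 1.001 kb in both genotypes at E13.5, 1.75 to 2.30 kb at E16.5 and P0, and 3.499 against 4.11 kb at P3. Clec2e had 6.48 to 10.6 kb of 19.1 kb, lower at E13.5 than later in both genotypes. Klrb1b, the receptor for Clr-b, had 2.01 to 3.997 kb of 22.6 kb, Klrb1f 2.235 to 3.81 kb of 23.9 kb and Clec2i 0.284 (P3 het) to 4.75 kb (P0 KO) of 20.6 kb. Clec2m had no call. Clec2l, far from the cluster on the same chromosome, had 1.61 to 6.0 kb of 27.8 kb.

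The Dectin-1 group (Clec7a, Clec1a, Clec1b, Clec9a, Clec12a and Clec12b), receptors of myeloid cells and platelets, was the least covered part of the cluster, with 5.50% (E13.5 KO) to 11.3% (P0 KO) of its windows. Clec1b encodes a platelet receptor, Clec9a a dendritic cell receptor for dead cells, and Clec1a a receptor of endothelial and myeloid cells. None of these 3 genes had a call, and Clec12b had at most 2.86 kb (P0 KO) of 62.1 kb. From Clec12b to Clec1a, over 76.5 kb, each list held at most 1 peak, of at most 1.79 kb. Clec7a, which encodes Dectin-1, the receptor for fungal beta-glucans, had 3.39 against 3.04 kb of 21.2 kb at E13.5, 5.29 against 3.73 kb at E16.5, 4.94 against 5.985 kb at P0, and 5.495 against 5.26 kb at P3. Clec12a, an inhibitory receptor gene of myeloid cells, had 2.81 kb (P3 het) to 6.32 kb (P3 KO) of 25.5 kb, and its promoter was covered in all 8 lists.

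Outside the cluster the Clec4 genes on chromosome 6 carried most of the called length. This Dectin-2 group of 10 genes, 9 of them in 1 linked group, encodes receptors of dendritic cells and macrophages. Its share was 18.6% in het and 16.2% in KO at E13.5, 31.1% and 32.7% at E16.5, 39.6% in both at P0, and 31.5% and 34.4% at P3. The KO over het ratios were 0.869, 1.05, 0.998 and 1.09, and every interval included 1. In both genotypes the share was highest at P0, where that of the Klra genes was below its E13.5 value.

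Clec4a3 had 14.9 against 15.4 kb of 27.4 kb at E13.5, 19.9 kb in both genotypes at E16.5, and 16.99 to 17.2 kb after birth. Clec4b1 had 9.31 against 5.09 kb at E13.5, 14.3 against 17.5 kb at E16.5, 24.6 against 22.7 kb at P0, and 13.49 against 18.8 kb at P3, of 31.6 kb, so that the higher genotype changed at every stage. Clec4a4, which encodes DCIR2, had 12.6 (E13.5 KO) to 25.9 kb (P0 KO) of 44.1 kb. Clec4a2 had 3.96 against 4.10 kb of 31.3 kb at E13.5, 8.28 against 7.81 kb at E16.5, 10.6 against 12.7 kb at P0, and 8.19 against 12.6 kb at P3.

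Clec4n, which encodes Dectin-2, a receptor for fungal mannans, had no call at E13.5 and 1.94 against 1.97 kb at E16.5. After birth it had 6.02 against 2.52 kb at P0 and 5.09 against 1.72 kb at P3. Clec4e, which encodes Mincle, a receptor for mycobacterial glycolipid, had 3.91 (E13.5 KO) to 7.23 kb (E16.5 KO) of 18.1 kb. Its neighbour Clec4d had 3.385 (P3 het) to 4.625 kb (P0 KO) of 23.2 kb. Clec4a1 had 0.58 to 8.68 kb of 22.8 kb and Clec4b2 2.80 to 15.9 kb of 41.8 kb, both lowest in E13.5 KO. Clec4f, away from the linked group, had a single call, of 1.001 kb in P0 KO. The promoters of Clec4n and Clec4a4 had no entry in the promoter table, and those of Clec4d and Clec4e were in no peak.

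Of the 365.6 kb of windows of the 9 remaining genes, Clec16a made up 209.6 kb. As a whole these 9 genes carried less than the Dectin-2 group, at most 5.77% (P3 KO) of their joined windows. Single genes among them had a median of 8.34% in that list. Clec3b, the gene of the plasma protein tetranectin, led them by share of the window, with 2.795 (E13.5 het) to 6.27 kb (P3 het) of 16.49 kb. Clec5a, a receptor gene of myeloid cells, had a call only in P0 KO, with 1.43 kb, and in P3 KO, with 2.91 kb. Its promoter lay in a peak in the same 2 lists. Clec18a had 1.81 to 6.94 kb of 32.9 kb, and Clec3a 0 (E13.5 het) to 4.21 kb (P3 KO) of 20.1 kb. Clec4g had no embryonic call and 2.04 to 3.61 kb of 23.6 kb after birth. Clec10a, a galactose receptor gene of macrophages, had 0.539 kb in E13.5 het and 0.354 kb in P0 KO and no other call. Clec16a, a long gene with a role in autophagy, had at most 3.795 kb of 209.6 kb. Clec11a, the gene of a growth factor of blood stem cells and bone, and Clec14a, an endothelial gene, had no call. The Klrg genes had 9.05% (E16.5 het) to 21.3% (P0 het) of their joined windows covered. Klrg1, an inhibitory receptor gene, had 2.78 against 1.24 kb at E13.5, 1.80 against 3.33 kb at E16.5, 3.83 against 3.27 kb at P0, and 1.98 against 3.08 kb at P3, with no constant direction. Klrg2 had 2.68 against 4.13 kb at E13.5, 3.15 against 3.61 kb at E16.5, 7.81 against 3.97 kb at P0, and 4.45 against 6.96 kb at P3.

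The genotypes were compared member by member, with a member counted as past the fold when 1 genotype had at least 1.5 times and at least 1 kb more covered than the other. A covered length of 1.001 kb, which recurs among the members, passes this rule when the other genotype has none. Klra9 at E16.5 and P3 and Clec4f at P0 passed in this way. At E13.5, 9 of 60 members were higher in KO and 3 in het, where 13.4% and 3.83% of all genes were. At E16.5, 2 were higher in KO (background 2.79%) and 0 in het (5.21%). At P0, 13 were higher in KO (16.52%) and 3 in het (4.82%), and at P3, 12 in KO (14.3%) and 1 in het (6.0%). The members' counts thus lay near the background. With equal numbers of peaks, the longest of every list, 7 members instead of 13 were higher in KO at P0. For the cluster as a whole KO over het was 1.13 at E13.5 (interval 0.994 to 1.29), 0.969 at E16.5 (0.865 to 1.09), 1.15 at P0 (1.01 to 1.30) and 1.11 at P3 (0.964 to 1.28), near the 1.19, 0.919, 1.17 and 1.18 over all genes, and the KO lists were the longer ones at E13.5, P0 and P3.

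Of the 13 members higher in KO at P0, 5 were NKG2 and related genes (of 9), 3 Klra genes of the cluster (of 10), 1 a Klrb or Clec2 gene of the cluster (of 12), 1 a Dectin-1 gene (of 6), 1 a Dectin-2 gene (of 10), none a Klrg gene (of 2) and 2 remaining genes (of 9), Clec4g and Clec5a. At P3 the 12 were 3 NKG2 and related genes, 1 Klra gene, 3 Klrb or Clec2 genes of the cluster, 1 Dectin-1 gene, 1 Dectin-2 gene, both Klrg genes and 1 remaining gene. The difference between groups was not tested. At both P0 and P3, 6 members were past the fold in KO, namely Klrk1, Klri1, Klri2, Klra9, Clec2h and Clec5a, where 5.72% of all genes were. Klra9 passed at P3 with only 1.001 kb against none. Clec4n was the only member past the fold in het at both, where 1.99% of all genes were. In the cluster of 37 members none was higher in het by this rule at E16.5, P0 or P3, where 5.21%, 4.82% and 6.0% of all genes were. Such shares of 37 genes come to few members, so the absence is not read as a trait of the cluster. Over all 60 members the E16.5 count in het was 0, and 3 without flanks.

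**Figure D5:**
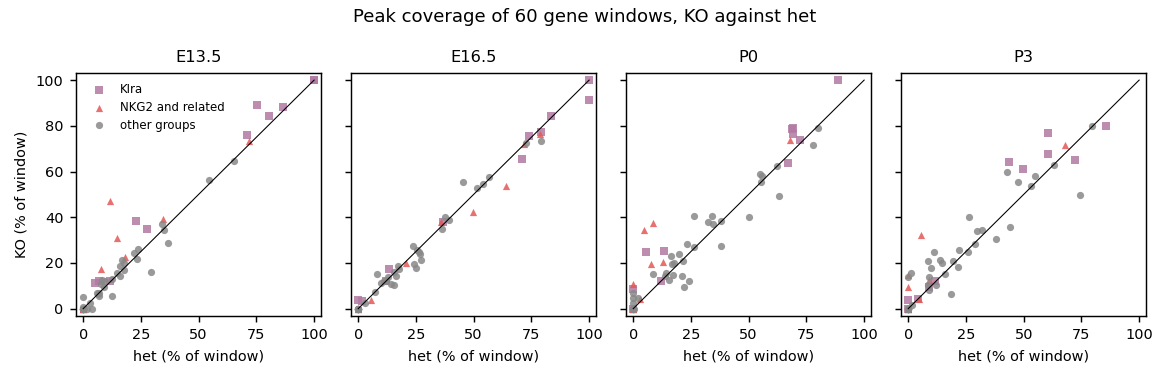
Percent of the window covered in KO (vertical axis) against het (horizontal axis) for the 60 members at each stage, with the line of equality. Squares are Klra genes, triangles NKG2 and related genes, circles the others. At E16.5 the points follow the line closely, and at P0 most triangles lie above it, led by Klrk1 and Klri2.

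The same rule was applied between consecutive stages within a genotype. From E13.5 to E16.5, 23 members were higher at the later stage in het and 18 in KO (background 24.5% and 18.5%), and 3 and 4 at the earlier (8.39% and 13.4%). The 3 in het, Klra8, Klra9 and Klra10, were all Klra genes, and the same 3 and Clec16a made up the 4 in KO. From E16.5 to P0, 9 members were higher at P0 in het and 10 in KO (16.2% and 26.3%), and 7 and 5 were higher at E16.5 (10.8% and 5.89%). All of those 7 and 5 lay in the cluster. They were Klrk1, Klrc3, Klri1, Klri2 and Klra3 in both genotypes, and in het also Klrc1 and Klre1. From P0 to P3, 2 members were higher at P3 in het and 4 in KO (16.7% and 14.8%), and 13 and 11 were higher at P0 (9.78% and 10.7%).

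From E16.5 to P0 the gene groups of the cluster differed. The covered length of its Klrb and Clec2 genes was 1.18 times as high in het and 1.16 times in KO. For its Klra genes the ratios were 0.831 and 0.958, for its NKG2 and related genes 0.352 and 0.677. Those of its Dectin-1 group were 0.851 and 1.46. For the cluster as a whole the covered length after E16.5 was lower at each later stage, whereas that over all genes was higher. Its covered length at P0 was 0.817 of that at E16.5 in het (interval 0.723 to 0.924) and 0.967 in KO (0.86 to 1.09), against 1.08 and 1.37 over all genes and 1.33 and 1.25 over the other members. From P0 to P3 the ratios were 0.872 in het (0.759 to 1.002) and 0.844 in KO (0.743 to 0.958), against 1.05 in both over all genes and 0.812 and 0.927 over the other members. Olfactory and vomeronasal receptor genes had ratios below 1 from P0 to P3 as well. These were 0.842 in het and 0.877 in KO for the olfactory receptor genes and 0.730 and 0.803 for the vomeronasal receptor genes. From E16.5 to P0 they were 0.958 and 1.04 for the former and 0.962 and 0.990 for the latter. From E13.5 to E16.5 the ratios were 1.26 in het and 1.08 in KO, against 1.69 and 1.31. With all 52 members of chromosome 6 taken as the cluster, the E16.5 to P0 ratio in KO was 1.02 in place of 0.967.

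In the whole span the lists held 90 (P3 het) to 110 peaks (P0 KO), with medians of 2562 to 4534 bp. Peaks with no counterpart in the other genotype were 7 of 99 in het and 15 of 100 in KO at E13.5, 5 of 92 and 10 of 106 at E16.5, 8 of 99 and 21 of 110 at P0, and 2 of 90 and 17 of 104 at P3. Over all autosomal peaks the shares without counterpart were 11.4% in het and 21.5% in KO at E13.5, 13.6% and 6.72% at E16.5, 11.6% and 19.6% at P0, and 13.7% and 20.6% at P3. In the span they were 7.07% and 15.0% at E13.5, 5.43% and 9.43% at E16.5, 8.08% and 19.1% at P0, and 2.22% and 16.3% at P3. The span thus lay below the autosomal share in every list but E16.5 KO, though by little in P0 KO and with small counts. Its median peak was longer than the autosomal median in every list, for example 4534 against 2393 bp in E16.5 het. A longer peak meets a peak of the other genotype more readily, and the part of peak length was not tested. The lower share is therefore not read as a trait of the span.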

How the data were processed

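Peak positions were taken from 8 deposited lists, which hold a chromosome, start and end per peak and no other column, so that every value here is a length computed from positions the authors deposited. The build is mm10, and bcl2fastq 2.20, cutadapt 1.18, Bowtie2 2.3.4.1, deepTools 3.5.0 and HOMER 4.10 are named, per the submitters' processing notes. Peak calling settings, the control, the handling of the 2 replicates and of reads that fit several places, and read depth are not given in the sources used here. Each list was taken as 1 pooled call set. Gene positions came from RefSeq on GRCm38.p6, the assembly that mm10 names. Klra16, Klra23 and 105 further protein-coding genes with positions on other scaffolds were left out. Covered base pairs were computed with Python 3.11.15, numpy 2.4.6 and pandas 2.3.3, and promoters were aligned with Biopython 1.88. Windows were joined before lengths were summed. The computation was tested on simulated data. The members, groups and lists were chosen with earlier results of these data known. Genes named singly were the 8 highest and 4 lowest of the cluster and the 5 highest others by mean coverage, the 2 largest differences per stage and direction, those past the fold at both P0 and P3, and a list of well-known receptors. Others were named after their values were seen. Alternatives were other flanks, equal peak numbers, the longer 50% of peaks, another extent of the cluster and a fold of 2. For equal peak numbers the 52630 longest peaks of each list were kept, which equalises neither covered length nor read depth.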

Additional observations from a re-analysis of the deposited data

Results flagged for a closer look

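In the chromosome 6 cluster KO over het covered length stood, for E13.5, E16.5, P0 and P3 in this order, at 1.13, 0.969, 1.15 and 1.11, below 1 at E16.5 only. All of these intervals but that of P0 included 1. In the NKG2 and related genes it was 1.43, 0.943, 1.81 and 1.63. Each value compares 1 list with 1 list, and the difference between stages was not tested. Over all autosomal gene windows the value was likewise below 1 at E16.5 only, with 1.19, 0.919, 1.17 and 1.18.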

How the results depend on the processing

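No paired analysis was possible because the lists carry no replicate. No replicate could be left out for the same reason. Read depth is unknown, and the absence of a call does not show the absence of the mark. Of 190 values recomputed under alternatives, 156 stayed within the interval of the value given or, for counts, within 1.5 times of it, 33 moved and 1 changed direction. For those that moved, the cause was not tested.

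With all members of chromosome 6 as the cluster, the E16.5 to P0 ratio in KO changed direction, to 1.02, and in het it was 0.926. The other members were then the 8 genes off chromosome 6, with Clec16a making up 209.6 kb of their 344.7 kb of windows. The factor of the cluster over the other members was 15.8 (het) and 12.7 (KO) at E13.5, and 9.95 and 11.8 at E16.5. At P0 it was 6.14 and 6.96, and at P3 4.97 and 5.65. Without flanks this factor was 4.48 and 5.89 at E13.5, 3.27 and 3.07 at E16.5, and 2.19 in both genotypes at P3.

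Counts of members past the fold were small. At P0, 8 were higher in KO without flanks and 7 with equal peak numbers. Higher in het at P0 were 5 without flanks, 5 with equal peak numbers and 5 with the longer 50% of peaks. At P3, higher in het were 2 without flanks, 2 with equal peak numbers and 3 with the longer 50%. At E16.5, higher in het were 3 without flanks, 2 with equal peak numbers and 1 with the longer 50%. Higher in KO at E16.5 were 1 without flanks, 4 with 10 kb flanks, 1 with the longer 50% and 1 with a fold of 2. At E13.5, 5 were higher in het with equal peak numbers.

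For the NKG2 and related genes, an analysis added after the data were seen, leaving out 1 member at a time gave KO over het of 1.27 to 1.83 at E13.5, 0.924 to 0.950 at E16.5, 1.61 to 3.16 at P0 and 1.39 to 3.66 at P3, the highest values at E13.5, P0 and P3 being those without Klrh1.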

Other observations

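Pseudogenes of the same families stood among the Klra genes and were covered like some neighbours and unlike others. Klra13-ps had 18.3 against 17.9 kb of a window of 25.3 kb at E13.5, 16.7 against 20.6 kb at E16.5, 15.7 kb in both at P0, and 7.17 against 13.0 kb at P3. Klra14-ps, between Klra8 and Klra9, had 2.91 (P3 KO) to 9.49 kb (E13.5 KO) of 21.6 kb. Klra11-ps, next to Klra8, had 7.66 against 4.51 kb of 20.2 kb at E13.5 and 1.001 kb in both genotypes at P3. In the Klrb and Clec2 part, Clec2j was without a peak before birth and had 2.495 to 4.14 kb of 11.9 kb in the postnatal lists.

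Other genes of the same pathways lie elsewhere in the genome, apart from Cd69 and Olr1, which encode lectin-like receptors and lie inside the cluster. Of 23 such genes, 14 had a call in at least 1 list, 6 in all 8 lists (27.1% of all genes did) and 9 in none (29.4% of all genes). Cd69 had no call at E13.5, 1.535 against 1.84 kb at E16.5, 4.82 against 5.35 kb at P0, and 4.19 against 4.74 kb at P3, of 18.1 kb. H2-T23, the gene of the Qa-1 ligand of CD94 with NKG2A, had 4.755 to 5.28 kb of 12.7 kb in the 8 lists. Of the NKG2D ligand genes, Ulbp1 had 4.65 to 7.99 kb of 38.8 kb, and Raet1d, Raet1e, H60b and H60c had no call. Tyrobp, the gene of an adaptor of activating receptors, had 1.255 to 4.53 kb of 13.8 kb, and Fcer1g and Card9 had no call. By the 1.5 fold rule 4 of the 23 were higher in KO and 3 in het at E13.5 (13.4% and 3.83% of all genes), 1 and 2 at E16.5 (2.79% and 5.21%), 5 and 0 at P0 (16.52% and 4.82%), and 0 and 0 at P3 (14.3% and 6.0%). Tyrobp and Hcst, both on chromosome 7, were among the 3 in het at E13.5. Each had 2.288 against 1.27 kb there, so the same peaks may be counted for both. Hcst and Vav1 passed at P0 with 1.001 kb against none.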
